A study of Capra hircus with 6 samples.

Results

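Back-splice junctions of MED17 and CDK8, which encode subunits of the Mediator complex, were examined in circular RNA (circRNA) tables from pre-ovulatory follicles of the goat, Capra hircus. All entries whose host identifier was 102175189 (MED17) or 102191436 (CDK8) were taken, and 1 circRNA was defined by its chromosome, start, end and strand. This gave 20 circRNAs, 16 of MED17 and 4 of CDK8, out of 13950 in all. MED17 had been singled out for its many circRNAs, so the number itself is a description. The tables came from 3 Boer goats and 3 Macheng black goats, 1 library per animal. Every animal of both breeds had normal estrous cycles and had received 1000 IU of PMSG (pregnant mare serum gonadotropin, which drives follicle growth) and 500 IU of hCG (human chorionic gonadotropin, which triggers ovulation), so no untreated follicle was included. The sources used here name neither the number of follicles nor the follicle cells in each library. The design sets the breeds side by side to ask how their follicle circRNAs differ.

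Mediator is a large protein complex that passes signals from DNA-bound transcription factors, nuclear hormone receptors among them, to RNA polymerase II. MED17 is a core subunit of its head module, the part that contacts the polymerase, while CDK8 is the kinase of a separable module that also holds cyclin C, MED12 and MED13. A circRNA is a closed molecule formed when the donor splice site at the end of an exon is joined back to the acceptor at the start of the same or an upstream exon, and a read across that joint is a back-splice read. Both genes lie on the minus strand in these files. The higher coordinate of each circRNA is therefore its acceptor side and the lower coordinate its donor side. Positions are counted from 1 in the coordinates of the deposited files, and the sources used here name no genome build.

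Sequencing gave 74796, 24884 and 41536 back-splice reads in Boer 1 to 3 and 39020, 49141 and 23480 in Macheng black 1 to 3. Boer 1 stood apart, with back-splice reads at 2.22% of its back-splice and non-junction reads together, against 0.861% to 1.73% in the other 5. No circRNA was listed with fewer than 2 reads, so a missing entry stands for at most 1 read, or for a back-splice that the caller missed. Of 24 marker genes of granulosa, theca, oocyte, endothelium, leukocytes and stroma, 22 were found by symbol in the gene table and none hosted a circRNA with a usable identifier. The labelled tissue could thus not be checked from these tables. In whole follicles, a difference in the number of cells of a type and a difference in RNA per cell cannot be told apart.

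MED17 circRNAs were built around 1 acceptor. All 16 lay on chromosome 29, between 512550 and 539799, and used 10 donors and 5 acceptors. The acceptor at 539799, the edge of a listed exon from 539633 to 539799, was joined to 8 of the donors and carried 810 of the gene's 912 reads, or 88.8%. Its share was 85.5%, 83.0% and 94.2% in the Boer libraries, against 91.1%, 88.4% and 96.0% in the Macheng black libraries. It was the most used acceptor in every library, and the ranges of the breeds overlapped. The acceptors at 536699 and 535213 carried 49 reads each over the 6 libraries, and those at 533494 and 532024 carried 2 reads each.

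**Figure D1:**
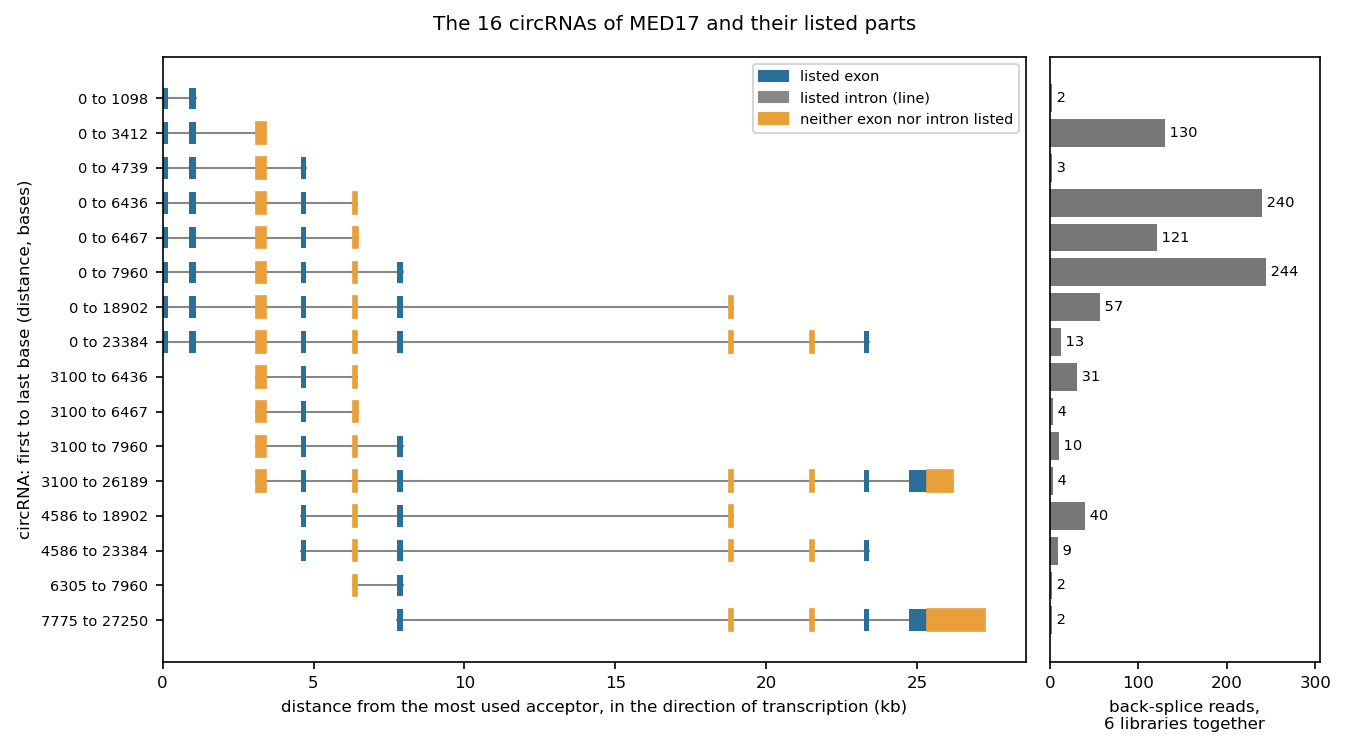
The 16 circRNAs of MED17, drawn from the most used acceptor (distance 0) in the direction of transcription (kilobases), with listed exons in blue, listed introns as a line and stretches listed as neither in orange. Bars give back-splice reads over the 6 libraries, up to 244 for the circRNA from 0 to 7960, and 8 circRNAs start at distance 0.

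Donors were less concentrated than acceptors. Those at 533364, 531840, 536388 and 533333 took 29.7%, 28.1%, 14.3% and 13.7% of the reads, and 520898 took 10.6%. The other 5 donors had between 2 and 22 reads. Joined to the main acceptor, the first 4 of these donors gave the most abundant circRNAs. In the plots, which measure distance in bases from the main acceptor, they are 0 to 6436, 0 to 7960, 0 to 3412 and 0 to 6467. Together these 4 circRNAs held 79.0%, 78.3% and 80.2% of the gene's reads in the Boer libraries, against 79.8%, 79.1% and 91.9% in the Macheng black libraries. Macheng black 3 was the highest, with the fewest MED17 reads of any library, and the other 5 lay within a few points of each other.

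Listed exon parts gave only part of the content of these molecules. Each of the 16 had at least 1 listed exon, but 11 had at least 1 end on a stretch that was listed as neither exon nor intron and that was bounded inside the circRNA by a listed part. The stretch from 536388 to 536699, 312 bases long, lay in 11 of the circRNAs, and that from 533364 to 533494, 131 bases, in 12, in 2 of which the donor at 533333 extended it to 162 bases. Further stretches of this kind measured 138 bases (520898 to 521035) and 118 bases (518228 to 518345). Among all 2040 circRNAs of the files with a usable host, 79.3% had at least 1 such end, against 68.8% in MED17. Because the deposited spliced length adds listed exons and introns and leaves these stretches out, it was 5993 bases for the circRNA from 533364 to 539799, of which 5453 were intron. Its listed exons (540 bases) and unlisted stretches (443 bases) came to 983 bases. For the circRNAs from 531840, 533333 and 536388 to the same acceptor this sum was 1168, 1014 and 699 bases. Whether introns are kept in the circles cannot be read from these tables.

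The leading pair of circRNAs was nearly equal in reads. The circRNA from 531840 to 539799, with 4 listed exons and 2 unlisted stretches, had 81, 30 and 32 reads in the Boer libraries, against 39, 34 and 28 reads in the Macheng black libraries, 244 in all. That from 533364 to 539799, which ends 1 exon earlier, had 79, 24 and 26 reads in Boer, against 26, 49 and 36 in Macheng black, 240 in all. Boer 1, the deepest library, had the most reads of both, and on the scale below the breeds overlapped for both. In CPM (reads scaled to 1000000 listed back-splice reads per library after TMM normalization), the first averaged 1009 ± 252 CPM in Boer, against 966 ± 193 CPM in Macheng black (SD over 3 animals each). The second averaged 884 ± 311 CPM in Boer, against 1056 ± 323 CPM in Macheng black (SD over 3 animals each). Neither difference exceeded the spread between animals (log2 fold changes, Boer over Macheng black, of 0.076 ± 0.39 and -0.23 ± 0.40, SE; edgeR quasi-likelihood test, adjusted p = 1.0 for both).

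Boer goats had 42, 18 and 19 reads of the shorter circRNA from 536388 to 539799, against 16, 18 and 17 in Macheng black goats. For the circRNA from 533333 to 539799 the reads were 27, 11 and 20 in Boer, against 18, 35 and 10 in Macheng black. The long circRNA from 520898 to 539799 spans an intron of 10804 bases. It was listed with 11, 5 and 13 reads in Boer, against 11, 13 and 4 in Macheng black. In all 3, the libraries of the breeds overlapped, with log2 fold changes of 0.22 ± 0.43, -0.40 ± 0.44 and -0.23 ± 0.61 (SE). The remaining members listed in at least 4 libraries were rarer. Reads of the circRNA from 533364 to 536699 numbered 11, 2 and 3 in Boer, against 9, 2 and 4 in Macheng black. Those of the circRNA from 516416 to 539799 numbered 3, 0 and 4 in Boer, against 3, 3 and 0 in Macheng black. The other 8 of the 16 had at most 10 reads each over all libraries, and 5 of them were listed in 1 library only, with 13 reads between them.

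**Figure D2:**
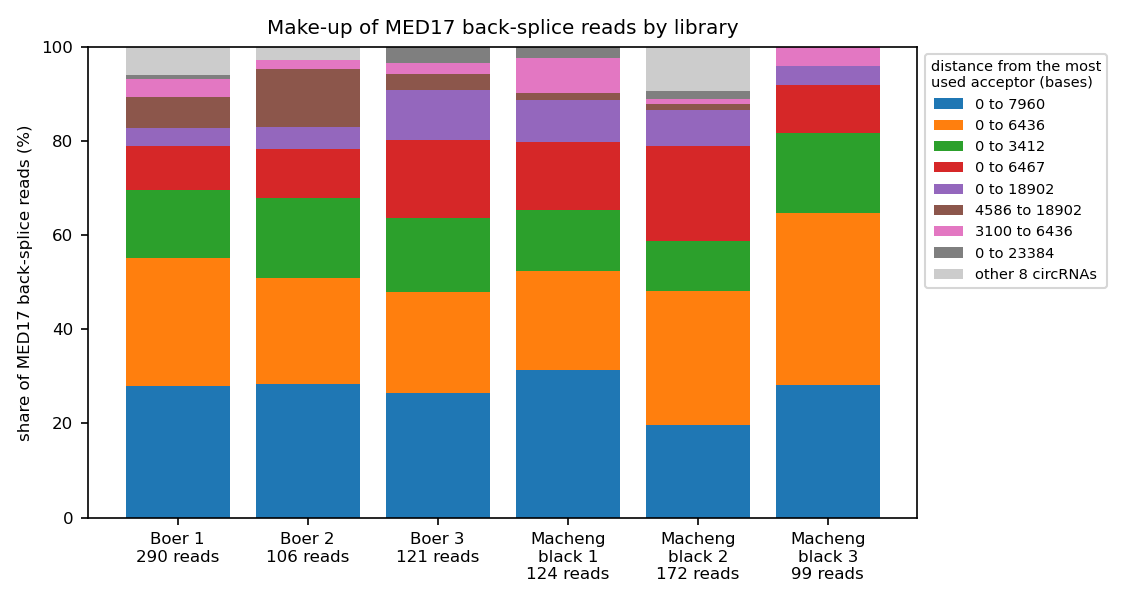
Share of each library's MED17 back-splice reads (percent, y axis) held by the 8 circRNAs listed in at least 4 libraries and by the other 8 together, for the Boer libraries and then the Macheng black libraries. The 4 lowest blocks reach 78.3% to 80.2% in the Boer libraries, against 79.1% to 91.9% in the Macheng black libraries.

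The circRNA from 520898 to 535213 was the one MED17 member whose breeds did not overlap. It had 19, 13 and 4 reads in Boer, and 2 and 2 reads in Macheng black 1 and 2 with no entry in Macheng black 3. Every Boer library lay above every Macheng black library, at 277 ± 176 CPM in Boer, against 33.2 ± 29.4 CPM in Macheng black (SD over 3 animals each). The difference did not pass the test over all circRNAs (log2 fold change 2.82 ± 0.98, SE; edgeR quasi-likelihood test, adjusted p = 0.645). Of the 3712 circRNAs tested, 6.92% had Boer above Macheng black without overlap. This circRNA runs from the same donor as the long circRNA above to the acceptor at 535213, the edge of a listed exon from 535061 to 535213. Its only companion at that acceptor, from 516416, had 4, 3 and 0 reads in Boer, against 0, 2 and 0 in Macheng black. As a share of MED17 reads, this acceptor took 7.93%, 15.1% and 3.31% in Boer (exact 95% intervals 5.09% to 11.7%, 8.88% to 23.4% and 0.908% to 8.25%). In Macheng black it took 1.61% and 2.33% in the first 2 libraries (0.196% to 5.70% and 0.637% to 5.85%) and had no listed read in Macheng black 3 (interval up to 3.66%). Such intervals cover counting error only. The mean share was 8.78% ± 5.94 in Boer, against 1.31% ± 1.19 in Macheng black (SD over 3 animals each; two-sided exact permutation p = 0.1, the smallest that 3 against 3 allows, and 0.4 after adjustment over 8 such comparisons). Without Boer 2 the difference of 7.46 points became 4.31. This comparison was chosen after the values were seen.

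**Figure D3:**
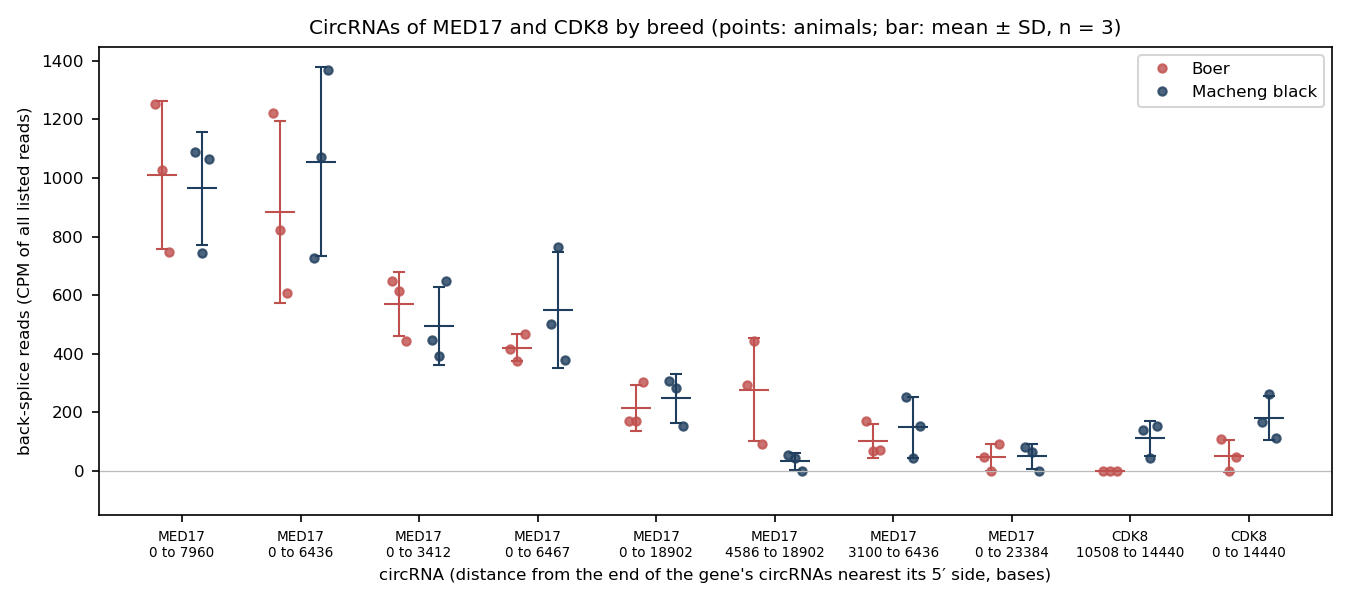
CPM of the 8 MED17 circRNAs listed in at least 4 libraries and of the 2 tested CDK8 circRNAs, with Boer left of Macheng black in each pair (points, animals; bars, mean ± SD, n = 3). The breeds separate for MED17 4586 to 18902 (the circRNA from 520898 to 535213) and for both CDK8 circRNAs, and none of the differences passed the edgeR test. For CDK8 10508 to 14440, listed in Macheng black only, the read filter fixed the separation.

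A pair of MED17 donors lay 31 bases apart. The donor at 533364 coincides with the edge of a listed intron (532025 to 533363), and that at 533333 lies 31 bases further downstream, inside that intron as listed. Both were joined to the same acceptors, 539799 and 536699. Among the reads of the pair, the downstream donor took 24.4%, 29.7% and 40.8% in Boer (29 of 119, 11 of 37 and 20 of 49 reads) and 34.0% and 42.0% in Macheng black 1 and 2 (18 of 53 and 37 of 88), with 10 of 50 reads in Macheng black 3. The upstream donor was therefore preferred in all 6 libraries, and the breeds overlapped. Exact 95% intervals of single libraries ran from 10.0% to 33.7% at the lowest share, in Macheng black 3, and from 31.6% to 53.0% at the highest, in Macheng black 2. The means were 31.6% ± 8.39 in Boer, against 32.0% ± 11.2 in Macheng black (SD over 3 animals each; two-sided exact permutation p = 1.0), a comparison added after the values were seen.

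The division of MED17 reads among its circRNAs was tested in 2 ways. The leading circRNA, from 531840 to 539799, held 27.9%, 28.3% and 26.4% of the gene's reads in Boer, against 31.5%, 19.8% and 28.3% in Macheng black. Its mean share, 27.6% ± 0.982 in Boer, against 26.5% ± 6.04 in Macheng black, differed by less than the spread (SD over 3 animals each; two-sided exact permutation p = 0.9). Over all 9 tested circRNAs of the gene, the use of circRNAs did not pass either (edgeR diffSpliceDGE with Simes combination over 122 host genes). The unadjusted Simes p was 0.016 and the adjusted Simes p 0.998. No host gene passed this test after adjustment, a background of 0%.

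Summed over its circRNAs, MED17 was among the most abundant of the host genes tested. Its reads numbered 290, 106 and 121 in Boer, against 124, 172 and 99 in Macheng black, or 0.361% of all back-splice reads of the files. It ranked 6 of 431 tested host genes by mean level. The ranking covers usable hosts only, which held 12968 of 74796 back-splice reads in Boer 1 and 4083 of 23480 in Macheng black 3. MED17 had also been singled out for its many circRNAs, whose reads enter this sum. On the scale of host-gene reads it averaged 21137 ± 4087 CPM in Boer, against 21572 ± 1894 CPM in Macheng black (SD over 3 animals each). The difference was smaller than its error (log2 fold change -0.028 ± 0.35, SE; edgeR quasi-likelihood test, adjusted p = 0.989). Its sign turned without Boer 3, to 0.13, and without Macheng black 3, to 0.029. The number of MED17 circRNAs listed followed the depth, at 14, 8 and 8 in Boer, against 8, 13 and 6 in Macheng black (10.0 ± 3.46 and 9.0 ± 3.61, SD over 3 animals each; two-sided exact permutation p = 0.7). Thinned to 23480 reads per library, the numbers were 8.35, 8.0 and 6.95 in Boer, against 7.30, 8.15 and 6.0 in Macheng black.

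Where it could be checked, non-junction reads of MED17 added up over the listed exons and introns of a circRNA, though the sources used here do not give the counting rule. In each of the 8 cases in which a library listed a pair of MED17 circRNAs with the same parts, their non-junction reads were equal. In 10 of 10 cases in which the parts of 1 circRNA were those of a pair of others together, its non-junction reads were the exact sum. These cases repeat a few combinations over the libraries, and the equal pairs were all those of the donors at 533333 and 533364. No case of either kind involved a circRNA with an end at 516416, 520898, 535061 or 535213. Over all usable hosts these shares were lower, 46.2% of 104 and 78.2% of 55. A back-splice percentage (back-splice reads of back-splice and non-junction reads together) therefore depends on the length of the listed parts, falling with it at equal back-splice reads, and is not the circular fraction of the gene's transcripts. For the circRNA from 536388 to 539799, with 3100 listed bases, it was 14.6%, 9.14% and 6.81% in Boer, against 6.40%, 6.74% and 7.62% in Macheng black. For the circRNA from 520898 to 539799, with 18321 listed bases, it was 1.12%, 0.408% and 1.02% in Boer, against 0.990%, 1.01% and 0.271% in Macheng black.

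At the leading circRNA, from 531840 to 539799, the back-splice percentage was 11.9%, 4.72% and 3.79% in Boer, against 5.74%, 4.26% and 3.73% in Macheng black. Boer 1 was above every other library. Its exact 95% interval, 9.60% to 14.6%, did not reach the highest of the others, 4.11% to 7.76% in Macheng black 1. The means, 6.82% ± 4.46 in Boer, against 4.57% ± 1.04 in Macheng black, differed by less than their spread (SD over 3 animals each; two-sided exact permutation p = 0.6), and without Boer 1 the difference turned from 2.25 to -0.317 points. The whole Boer 1 library also had the highest back-splice percentage, 2.22%, and the part of this in the MED17 value was not tested. In every library the leading circRNA lay above the median of all circRNAs with a usable host, which was 3.18%, 1.97% and 2.72% in Boer, against 2.35%, 2.52% and 1.77% in Macheng black. It was chosen for its many back-splice reads, which enter this percentage, so the choice favoured a place above the median. The circRNAs compared were not matched for the length of their listed parts.

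Differences between nested circRNAs placed the non-junction reads along the gene, on the premise that they add up over the listed parts. That premise was not checked for circRNAs with an end at 516416, 520898, 535061 or 535213. The values of the intron of 10804 bases and the splits within 533364 to 536387 rest on such circRNAs. In the stretch next to the main acceptor (536388 to 539799) there were 245, 179 and 260 reads in Boer, against 234, 249 and 206 in Macheng black. Per kilobase of listed parts this was 57.7 to 83.9 reads over the 6 libraries. The next stretch downstream, 533364 to 536387, was the densest in every library among those in the plot of non-junction reads, with 92.6, 109 and 151 reads per kilobase in Boer, against 108, 135 and 135 in Macheng black. In Boer 1, the one library that listed the circRNA from 538702 to 539799, the 1098 bases next to the acceptor had 164 reads, or 149 per kilobase, more than the 92.6 of this stretch. Within the stretch from 533364 to 536387, reads lay to 1 side. The part from 533495 to 535213, an intron and an exon of 1719 bases, had 136, 152 and 230 reads per kilobase in Boer, against 161 and 205 in Macheng black 1 and 2. The neighbouring intron from 535214 to 536387 had 29, 46.0 and 34.1 in Boer, against 30.7 and 32.4 in Macheng black 1 and 2. The ratio was 3.30 to 6.76 in these 5 libraries, and Macheng black 3 did not list the circRNA needed. In Boer 1, the library that allowed a finer split, 232 of the 234 reads fell to the intron from 533495 to 535060 and 2 to the exon of 153 bases. That split has no replicate. The intron of 10804 bases from 521036 to 531839 had 34.2, 56.9 and 41.8 reads per kilobase in Boer, against 42.5, 46.9 and 69.3 in Macheng black.

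**Figure D4:**
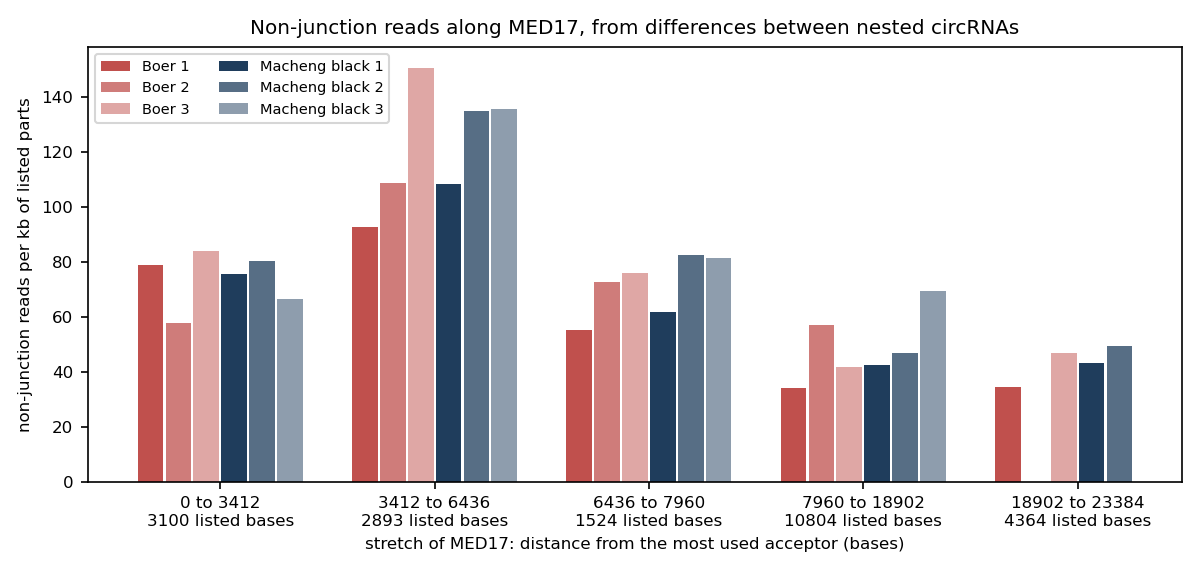
Non-junction reads per kilobase of listed parts (y axis) in 5 consecutive stretches of MED17, given by distance from the most used acceptor (x axis), for the Boer libraries (red) and the Macheng black libraries (blue). The stretch from 3412 to 6436 is highest in all 6 libraries, at 92.6 to 151 reads per kilobase, and bars are missing where a library did not list the circRNA needed.

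CDK8 gave few circRNAs, and all 4 met at 1 short stretch. They lay on chromosome 12 between 30887867 and 30921065 and used 3 donors and 3 acceptors. The stretch from 30906626 to 30906766, 141 bases long and listed as neither exon nor intron, lay at the border of each circRNA. Its lower edge was the donor of 2 circRNAs, which held 41 of the gene's 46 reads, and its upper edge the acceptor of the other 2, which held 5 reads in Macheng black 2. The files listed these circRNAs as introns only. Yet both ends of each lay on such an unlisted stretch, of 132, 58, 141, 111 or 76 bases, and not inside a listed intron. Of the 628 circRNAs with introns only and a usable host in these files, 73.1% had both ends on such a stretch. Leaving out the listed introns, the 4 circRNAs contained 199 to 331 bases.

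Boer libraries held 7, 0 and 2 reads of the leading CDK8 circRNA, from 30906626 to 30921065, against 6, 12 and 3 in Macheng black libraries. On the CPM scale of all listed reads it averaged 51.7 ± 54.3 in Boer, against 181 ± 75.1 in Macheng black (SD over 3 animals each; log2 fold change by edgeR -1.63 ± 1.11 with its SE, adjusted p = 1.0). Without Boer 1 the log2 fold change was -2.66. No Boer library listed the circRNA from 30906626 to 30910557, against 5, 2 and 4 reads in Macheng black. With Boer set at 3 reads over the breed, 1 per library, its level was 4.59-fold lower in Boer. That ratio leaves out counting error and any back-splice that the caller missed, so it is no firm minimum. The difference did not pass (edgeR quasi-likelihood test, adjusted p = 0.843). In both circRNAs each Boer library had a lower CPM than each Macheng black library, a pattern seen in 4.8% of the circRNAs tested. For the circRNA from 30906626 to 30910557 this was fixed in advance. It passed the read filter through the Macheng black libraries alone, so its separation adds no information. For the leading circRNA, Boer 1 reached 108 CPM from 7 reads and Macheng black 3 reached 114 CPM from 3 reads. These values lie closer than 1 read in either library (15.5 and 38.1 CPM). In unscaled reads Boer 1 lay above Macheng black 1 and 3, so this separation rests on the scaling. Macheng black 2 alone listed the other circRNAs of the gene, with 3 reads from 30890271 to 30906766 and 2 reads from 30887867 to 30906766.

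As a gene, CDK8 had 7, 0 and 2 back-splice reads in Boer, against 11, 19 and 7 in Macheng black. Scaled to host-gene reads this was 575, 0 and 272 CPM in Boer, against 1788, 2302 and 1677 CPM in Macheng black, with no overlap. The means were 282 ± 288 CPM in Boer, against 1922 ± 333 CPM in Macheng black (SD over 3 animals each). Across all host genes the difference did not pass (log2 fold change -2.46 ± 0.80, SE; edgeR quasi-likelihood test, adjusted p = 0.0985). Of the 431 host genes tested, 1.16% passed in either direction, 0 of them MED17 or CDK8. Without overlap, 4.64% had Boer below Macheng black and 6.73% had Boer above it. With so few reads, 1 read was worth 82.1 to 240 CPM on this scale. Boer 1 and Macheng black 3 had the same 7 reads and differed in CPM by the scaling alone. The direction held in each of 13 alternatives, with log2 fold changes from -3.41 to -2.09 and adjusted p from 0.0716 to 0.858.

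**Figure D5:**
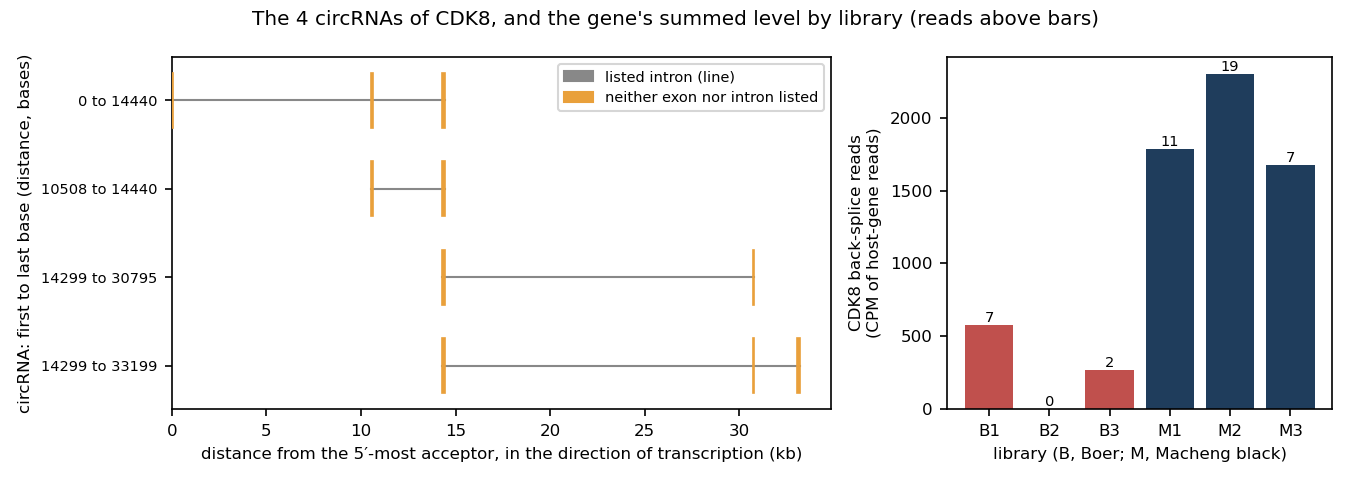
Left, the 4 circRNAs of CDK8 by distance from the 5′-most acceptor (kilobases), with listed introns as a line and stretches listed as neither exon nor intron in orange. Right, summed CDK8 back-splice reads per library on the scale of host-gene reads (CPM), with the reads above the bars. The Boer libraries reach 575 CPM at most and the Macheng black libraries lie between 1677 and 2302 CPM.

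The number of CDK8 circRNAs listed was 1, 0 and 1 in Boer, against 2, 4 and 2 in Macheng black. The mean was 0.667 ± 0.577 in Boer, against 2.67 ± 1.15 in Macheng black (SD over 3 animals each; two-sided exact permutation p = 0.1, the smallest possible, and 0.4 after adjustment over 8 comparisons). After thinning to 23480 reads per library it was 0.800, 0 and 0.300 in Boer, against 1.90, 1.85 and 2.0 in Macheng black, still without overlap. Counting circRNAs with at least 5 reads ended the separation, with 1, 0 and 0 in Boer, against 2, 1 and 0 in Macheng black (two-sided exact permutation p = 0.7). All reads of the gene came from the leading circRNA in Boer 1 and Boer 3, against 54.5%, 63.2% and 42.9% in Macheng black. With 9 reads in the Boer libraries together, and Boer 2 without a value, 2 against 3 libraries cannot go below p = 0.2 (two-sided exact permutation p = 0.2). The use of CDK8 circRNAs did not pass in edgeR's diffSpliceDGE (adjusted p = 0.998).

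Back-splice percentages of the leading CDK8 circRNA were 2.53% and 0.741% in Boer 1 and 3 and 1.5%, 3.48% and 0.904% in Macheng black. They overlapped between the breeds (1.63% ± 1.26 in Boer, n = 2, and 1.96% ± 1.35 in Macheng black, n = 3, SD; two-sided exact permutation p = 0.8). Where it was listed, its non-junction reads numbered 270 and 268 in Boer 1 and 3, against 394, 333 and 329 in Macheng black. They came to 19.1 and 19.0 reads per kilobase of listed intron in Boer, against 27.9, 23.6 and 23.3 in Macheng black. Both Boer libraries lay below all 3 Macheng black libraries, as in the back-splice reads summed over the gene on the CPM scale. These non-junction counts are not scaled for depth. The whole libraries held 3292799 and 2761612 non-junction reads in Boer 1 and 3 and 2218231, 3307051 and 2702211 in Macheng black.

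Of 33 subunit genes, all found in the gene table, 3 hosted a circRNA with a usable identifier: MED17, CDK8 and MED13, a kinase module subunit that links the kinase to the core complex. MED13 had 7 circRNAs, with 10, 2 and 6 reads in Boer, against 0, 6 and 0 in Macheng black (691 ± 220 CPM in Boer, against 242 ± 420 CPM in Macheng black, SD over 3 animals each; log2 fold change by edgeR 1.30 ± 1.43 with its SE, adjusted p = 0.958). That value became 5.31 without Macheng black 2, the one library of its breed with MED13 reads, 0.74 without Macheng black 1 and 0.82 without Macheng black 3. The other kinase module genes (cyclin C, CDK19, MED12, MED12L and MED13L) hosted none with a usable identifier. Of the 13950 circRNAs, 2040 had 1 usable host, so these genes are not shown to lack circRNAs. None of the 3 hosts passed, with edgeR or with DESeq2, and 1 of them, CDK8, had an unadjusted p under 0.05, as did 7.19% of the host genes tested. Of the 20 single circRNAs of MED17 and CDK8, 11 had enough reads to be tested and 0 passed with either tool, against 0.35% of all 3712 tested (0.242% lower and 0.108% higher in Boer). At an unadjusted edgeR p under 0.05 there were 2 of the 11, against 5.23% of all tested. These were MED17 520898 to 535213 and CDK8 30906626 to 30910557, and the CDK8 circRNA entered the tests through Macheng black libraries alone. The 9 tested MED17 circRNAs had a median log2 fold change of -0.091, with 4 above and 5 below 0, against 0.11 over all circRNAs tested.

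The profiles of MED17 and CDK8 over the libraries were not alike (Pearson r = -0.16 of log2(CPM + 1), 6 libraries, a description). The 3 host genes most like MED17 among 431 were LOC102173963, GLUD1, which encodes glutamate dehydrogenase, and SEC24B, a coat protein of transport vesicles, with r of 0.93, 0.91 and 0.91. GLUD1 and SEC24B had no listed read in Boer 3, the library lowest in MED17. Those most like CDK8 were CNOT6, a deadenylase subunit, LMBR1 and AKAP2, a kinase anchoring protein, each with r of 0.99. All 3 shared with CDK8 that no read was listed in Boer 2, and these points share library and depth.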

How the data were processed

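Per the labels' protocols, TRIzol was used to extract total RNA, ribosomal RNA was depleted, and no enrichment for circular RNA is named. The submitters' processing notes name Bowtie2 (2.0.6) and TopHat2. How circRNAs were called, and on which build and annotation, the sources used here do not give. The deposited files, 1 per library, hold whole-number read counts for each circRNA, on the back-splice junction and not on it, with no normalization, per the file headers and values. Lengths in bases are other deposited values. Breed and animal number came from the sample titles. The sample code of Boer 2 in its label differs from that in its file in the last digit.

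CircRNAs were matched by chromosome, start, end and strand, and not listed was set to 0. Of 829 host identifiers, 27 that lay on several chromosomes or had a part over 1000000 bases were set aside. Of the 802 left, 780 were the sole usable host of at least 1 circRNA (2040 circRNAs in all), and 751 of these 780 had a symbol in the table of assembly ARS1.2 (names only). A feature entered the tests when 3 or more libraries had 2 or more of its reads, in edgeR 4.0.16 (R 4.3.3; TMM, quasi-likelihood test, Benjamini-Hochberg adjustment at 0.05), on all circRNAs and on sums per host gene. DESeq2 1.42.0 was an alternative. Exact permutation tests (scipy 1.17.1) served for values per library, adjusted over 8 comparisons. Thinning took the mean of 20 draws. A positive log2 fold change means higher in Boer. Named were circRNAs listed in at least 4 libraries, the 3 with most reads of each gene, Mediator hosts, and the 3 hosts most correlated with each gene. The members and lists were chosen with earlier results of these data known. Library totals ran from 23480 to 74796 reads, so 1 read was worth 15.5 to 38.1 CPM and smaller differences are not detectable.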

Additional observations from a re-analysis of the deposited data

How the results depend on the processing

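Neither gene, none of their circRNAs and no use test passed the threshold in any alternative run. When 5 reads in 3 libraries were asked for, 1 circRNA of CDK8 was left, so its use could not be tested. CDK8 kept its direction as a gene in 13 of 13 alternatives and its leading circRNA in 11 of 11 (from -2.66 to -1.18 with 1 replicate left out), while MED17 as a gene turned with no filter on low counts, to 0.015, and ranged from -0.095 to 0.13 with 1 replicate left out. The circRNA from 520898 to 535213 stayed higher in Boer in 10 of 10, from 2.37 to 3.28. Differences in percent points or circRNAs between the breeds with 1 replicate left out ranged as follows. The leading MED17 share ran from -2.31 to 3.53, its back-splice percentage from -0.317 to 3.76, the number of MED17 circRNAs from -1.0 to 3.0, the share of the acceptor at 535213 from 4.31 to 10.2, the share of the downstream donor of the pair from -6.37 to 4.66, and the back-splice percentage of CDK8 from -1.22 to 0.566. With the next most abundant MED17 circRNA as the leading one, chosen after seeing the data, the share difference was -4.82, and summed over its circRNAs the CDK8 percentage difference was 0.0272. Single MED17 circRNAs near 0 also turned. Log2 fold changes with 1 replicate left out ran from -0.12 to 0.28 for 531840 to 539799, -0.56 to 0.024 for 533364 to 539799, -1.05 to 0.19 for 533364 to 536699 and -0.89 to 0.39 for 516416 to 539799. For 531840 to 539799 the value was -0.022 both with RLE size factors and with DESeq2. The cause was not tested. With the animal number as a replicate block, the log2 fold changes were -0.041 for MED17 and -2.63 for CDK8 (adjusted p = 0.276). Same-numbered libraries of the breeds did not deviate together (r of -0.052, -0.066 and 0.028 over 1132 circRNAs), and the block moved the number of host genes past the threshold from 5 to 0 and of circRNAs from 13 to 11. Without a block, host genes past the threshold numbered 3 with no filter, 0 with at least 5 reads, 1 with DESeq2, 2 with all identifiers and 1 to 4 with 1 replicate left out. CircRNAs past it numbered 35, 2 and 8 under the first 3 of these, and 1 to 21 with 1 replicate left out. CDK8 rests on 46 reads in all, so its values have low depth.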
